A study of Homo sapiens with 4 samples.

Results

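Long intergenic noncoding RNAs (lincRNAs) were taken as the rows of the deposited expression table that its authors typed as lincRNA and that had a mean normalized count of at least 200 over the 4 libraries. This gave 136 lincRNAs out of 7340 rows of that type, of which 2923 had at least 1 read, in a table of 63677 genes. The members were thus chosen by their mean level over all 4 libraries, so their levels are given as a description. The difference between the groups was not itself used. However, a row near the bound can pass it through the group where it is higher. The last members inside the limit were RP11-391M1.4, CTD-2619J13.19 and RP6-65G23.3, with means of 204.3, 203.4 and 200.1. The first rows outside it were LINC00205, RP11-458F8.4 and LINC00174, with means of 198.9, 196.5 and 196.04.

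RNA came from MDA-MB-231, a triple-negative breast cancer cell line (TNBC, lacking hormone receptors and high HER2), which expresses much AXL, a receptor tyrosine kinase of cell migration and invasion. The siCt cells (2 libraries, siCt 1 and siCt 2) received a control siRNA. The siAxl cells (2 libraries, siAxl 1 and siAxl 2) received a commercial pool of siRNAs against AXL. Both groups were transfected with a lipid reagent, and the study asked which genes follow AXL depletion in this single line. Nothing in the labels says that libraries of a group came from separate cultures, so the p-values measure the spread between these libraries, which may be technical. Fewer cells of a kind and less RNA per cell cannot be told apart in such bulk RNA.

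LincRNAs are RNA polymerase II transcripts from between protein-coding genes. Many are spliced and capped like mRNAs but carry no long reading frame. Some act as structural RNAs in the nucleus, some sequester proteins or miRNAs, and others are precursors from which miRNAs or snoRNAs are cut. A further group starts back to back with a protein-coding gene at a shared promoter, and several rows once typed as lincRNA are now known to encode small proteins.

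The libraries held 44281982 and 39574387 reads in siCt and 44585773 and 44559547 reads in siAxl. All lincRNA rows together took between 0.430% and 0.493% of them, and the 136 members held 81.9% to 82.8% of these lincRNA reads. AXL itself had normalized counts of 29189 and 30617 in siCt and of 8658 and 7141 in siAxl. Both siAxl libraries lay far below both siCt libraries, at 26.4% of the siCt mean (log2 fold change -1.93, SE 0.0918, limma with Benjamini-Hochberg adjusted p = 0.000585). Of the markers of the line, vimentin (VIM), CD44, moesin (MSN), ITGB1, CAV1, KRT18 and EGFR had means from 10604 (EGFR) to 101924 (ITGB1) normalized counts. EGFR (0.94, limma adjusted p = 0.00166) and CAV1 (0.34, limma adjusted p = 0.00908) were higher in siAxl, and the others of these were not called. The means of the oestrogen and progesterone receptors were 1.79 (ESR1) and 0.725 (PGR), while ERBB2 (3314), EPCAM (668) and GATA3 (282) were present. ERBB2 was higher in siAxl (0.26, limma adjusted p = 0.0258). CDH1 was low (mean 61.0) and fell, with 90.1 and 94.3 in siCt and 36.9 and 22.6 in siAxl (-1.64, limma adjusted p = 0.00847). Among markers of other cell types the means of PTPRC, CD3E, PECAM1, CDH5 and ALB were 11.3, 0.240, 0, 0.756 and 5.40. siCt 1 and siAxl 1 held 3.70% and 3.78% mitochondrial reads against 2.11% and 2.28% in siCt 2 and siAxl 2, a difference within the groups.

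The sequences that identify the miRNA precursors among the members are shown first, because the difference of their hosts between libraries is described below. By position in GENCODE 29, 14 of the 108 members with an entry there spanned a miRNA gene on the same strand. Rows such as MIR146A, MIR24-2 and MIR29A are the long host transcripts under the name of the miRNA, not the mature miRNA, which was not measured. The mature sequences below are RefSeq's, written 5′ to 3′ with the seed (bases 2 to 8, which pair with targets) in capitals. miR-221 and miR-222 come from 1 host and share their seed, as do miR-29a and miR-29b, while miR-23a, miR-27a and miR-24 come from 1 cluster with 3 different seeds.
miR-221-3p: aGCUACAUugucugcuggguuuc
miR-222-3p: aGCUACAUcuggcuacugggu
miR-29a-3p: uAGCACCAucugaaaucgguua
miR-29b-3p: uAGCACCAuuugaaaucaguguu
miR-23a-3p: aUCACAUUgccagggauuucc
miR-27a-3p: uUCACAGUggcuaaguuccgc
miR-24-3p: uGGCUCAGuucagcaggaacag
miR-146a-5p: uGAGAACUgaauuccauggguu
miR-22-3p: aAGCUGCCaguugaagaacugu
miR-210-3p: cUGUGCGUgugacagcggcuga

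The second set of sequences belongs to members that differed between siAxl and siCt. RefSeq holds a promoter (250 bases before the start of the transcript and 50 after it, build GRCh38.p14) for 58 members, among them 4 called members that GENCODE 29 types as lincRNA. LINC01444 is RP11-527H14.3 in the table and starts within chr18:14970419-14970718 on the minus strand, LINC00857 lies in chr10:80207460-80207759 on the plus strand, LINC01116 in chr2:176637560-176637859 on the minus strand and LINC02035 (RP11-67L2.2) in chr3:122886263-122886562 on the plus strand. Capitals mark the words GGGCGG (bound by SP1), TATAAA (the TATA box), CCAAT (bound by NF-Y), TGACTCA (bound by AP-1) and ACGTG (bound by HIF), each searched on both strands, none of them part of another.
LINC01444: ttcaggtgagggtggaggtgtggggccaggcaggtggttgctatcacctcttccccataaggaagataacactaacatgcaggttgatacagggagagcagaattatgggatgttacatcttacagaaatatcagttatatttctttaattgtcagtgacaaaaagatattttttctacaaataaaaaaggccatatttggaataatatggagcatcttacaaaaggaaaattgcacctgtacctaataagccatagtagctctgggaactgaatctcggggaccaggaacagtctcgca
LINC00857: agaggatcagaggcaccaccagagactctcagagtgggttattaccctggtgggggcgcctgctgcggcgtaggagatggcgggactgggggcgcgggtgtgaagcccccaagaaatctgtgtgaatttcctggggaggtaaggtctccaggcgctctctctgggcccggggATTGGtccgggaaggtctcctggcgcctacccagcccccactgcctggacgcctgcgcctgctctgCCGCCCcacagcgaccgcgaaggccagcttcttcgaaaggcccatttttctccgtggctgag
LINC01116: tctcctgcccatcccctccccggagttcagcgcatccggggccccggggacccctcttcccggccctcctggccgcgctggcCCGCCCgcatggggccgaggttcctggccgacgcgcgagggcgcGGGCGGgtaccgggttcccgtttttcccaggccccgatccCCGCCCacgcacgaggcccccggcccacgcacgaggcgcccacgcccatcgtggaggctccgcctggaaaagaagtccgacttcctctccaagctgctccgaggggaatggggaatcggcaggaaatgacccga
LINC02035: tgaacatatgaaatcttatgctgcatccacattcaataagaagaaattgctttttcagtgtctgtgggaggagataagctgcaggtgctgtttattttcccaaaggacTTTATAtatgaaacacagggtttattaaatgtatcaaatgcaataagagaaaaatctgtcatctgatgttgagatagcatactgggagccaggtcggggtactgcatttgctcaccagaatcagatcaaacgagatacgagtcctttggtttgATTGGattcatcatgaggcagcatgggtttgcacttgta

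These 4 promoters had little in common. LINC01116 lay in a CpG-rich stretch of 72.7% G and C with 3 copies of GGGCGG, and LINC00857 (64.7%) had 1 GGGCGG and 1 CCAAT. LINC01444 (40.7%) held none of the 5 words, and LINC02035 (39.3%) held 1 TATAAA and 1 CCAAT. The median over 35116 RefSeq promoters was 58.7%. GGGCGG stood in 53.4% of the 58 member promoters against 45.0% of all promoters, TATAAA in 6.9% against 11.5%, CCAAT in 46.6% against 34.6%, TGACTCA in 13.8% against 4.95% and ACGTG in 39.7% against 21.4%. A word is a match of letters and no evidence of binding.

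Between siAxl and siCt, 12 of the 136 lincRNAs (8.82%) differed at an adjusted p under 0.05, 7 higher and 5 lower in siAxl, against 18.7% of the 16064 genes tested. The test was limma on log2(normalized count + 1) with p-values adjusted by Benjamini and Hochberg over all genes tested, so fold changes are on that scale. All 136 members passed the filter on low counts. The share was 24.4% for all tested genes with a mean of at least 200. Past the same bound it was 25.0% for protein-coding genes, 15.5% for the 84 antisense genes and 7.94% for the 63 processed transcripts. It was 2.87% for the 661 lincRNA rows tested that were not members. Changes of the members ran from -0.65 to 0.78 with a median of -0.016, beside -0.0022 for all genes, and their median size was 0.156, beside 0.146 for all genes with a mean of at least 200. Their median standard error was 0.109 against 0.0721 for those genes. The members were also lower, with a median of 439.6 normalized counts against 1820 for all tested genes with a mean of at least 200.

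Both siAxl libraries lay above both siCt libraries for 33 members (24.3%, against 30.6% of all genes) and below them for 34 (25.0%, against 30.5%). These 67 members (49.3%) stand beside 61.2% of all genes. With a mean of at least 200 it was 67.0% of all genes tested and 46.0% of processed transcripts. The 12 called lincRNAs were all among the 67. Of the 124 others, 75 had a 95% interval within 0.5 log2 units of 0 on either side, and for 49 the interval reached past it. The count of called members depended on which libraries were used. Leaving out 1 library left a lone library in its group and made the replicate numbers unequal between the groups. The count was 4 when every gene with a read was tested, where 1097 of 27108 genes were called. With scaling to total reads the count stayed at 12, but with 5 higher and 7 lower.

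**Figure D1:**
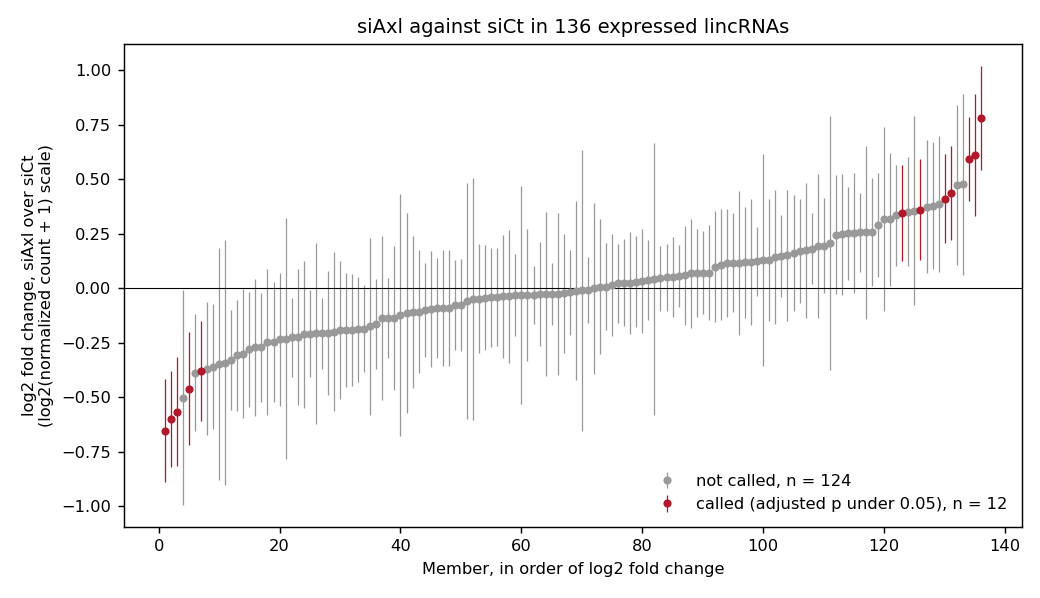
Log2 fold change of each of the 136 lincRNAs, siAxl over siCt, in rising order (points, limma on log2(normalized count + 1)), with 95% intervals as bars. The 12 called lincRNAs are red; changes run from -0.65 to 0.78 and most grey intervals cross 0.

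Among the lincRNAs that fell, LINC00857, a lincRNA described as promoting growth in several carcinomas, had 639.6 and 709.7 in siCt and 427.3 and 460.8 in siAxl. Neither group reached the other, and siAxl stood at 65.8% of siCt (-0.60, SE 0.0940, limma adjusted p = 0.00800). This call, and those of C11orf95 and RP11-60A8.1 below, held in each of the 14 other fits, which covered scaling, test, filter, pseudocount, pairing and left-out libraries.

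LINC01444 had 699.03 and 645.8 in siCt against 491.4 and 417.6 in siAxl, again with no overlap (-0.57, SE 0.106, limma adjusted p = 0.0140). Without siAxl 2 its adjusted p was 0.0518. LINC00116 and NCBP2-AS2 are typed as lincRNA in the table but as protein-coding in GENCODE 29. LINC00116, now MTLN, encodes mitoregulin, a micropeptide of the inner mitochondrial membrane linked to fatty acid oxidation. It had 393.1 and 432.3 in siCt and 281.7 and 317.4 in siAxl (-0.46, SE 0.1096, limma adjusted p = 0.0293). NCBP2-AS2, which encodes a short protein and starts 26 bases from NCBP2, had 591.6 and 665.3 in siCt and 462.3 and 502.1 in siAxl (-0.38, SE 0.0970, limma adjusted p = 0.0363). In both genes the higher siAxl library stayed below the lower siCt library. Leaving out siCt 2 or siAxl 1 ended the call of each, with adjusted p of 0.0624 and 0.142 for LINC00116 and 0.114 and 0.164 for NCBP2-AS2, and for NCBP2-AS2 so did leaving out siAxl 2 (0.0650).

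Among those that rose, RP11-60A8.1 (AC116345.1 in GENCODE 29) changed most. It had 227.3 and 223.2 normalized counts in siCt and 399.2 and 376.3 in siAxl, with a spread inside each group far smaller than the gap between them (0.78, SE 0.1013, limma adjusted p = 0.00442). C11orf95 was the only called lincRNA with a mean above 1000 among 27 such members. GENCODE 29 types it as protein-coding, and it is known as ZFTA, a partner in the gene fusions of supratentorial ependymoma. Its counts were 1270 and 1131 in siCt and 1884 and 1736 in siAxl, which do not overlap (0.59, SE 0.0817, limma adjusted p = 0.00532). LINC02035, with little known of its function, had 210.96 and 186.4 in siCt and 292.3 and 315.4 in siAxl. Its groups were also apart (0.61, SE 0.119, limma adjusted p = 0.0158), although without siAxl 2 the adjusted p was 0.0714.

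LINC01116, which lies beside the HOXD cluster, had 466.98 and 433.4 in siCt and 597.3 and 599.4 in siAxl. The siAxl pair was almost equal and above both controls (0.41, SE 0.0864, limma adjusted p = 0.0207), and the adjusted p was 0.0851 without siAxl 1 and 0.0814 without siAxl 2. It shares 222 exon bases with LINC01117 on the opposite strand, which had a mean of 15.5 reads against 528 for LINC01116. The remaining 3 that rose, RP11-252A24.7, RP11-137H2.6 and AC005943.5, had no GENCODE 29 entry by identifier. Their counts in siCt were 496.7 and 554.8, 398.9 and 444.2, and 282.9 and 271.96. In siAxl they were 686.7 and 735.97, 532.2 and 538.5, and 350.6 and 361.6, in no case overlapping. The changes were 0.44, 0.35 and 0.36, with limma adjusted p of 0.0208, 0.0433 and 0.0449. RP11-252A24.7 missed the threshold without siAxl 2 (0.0922). RP11-137H2.6 did so without siCt 1 (0.126), siAxl 1 (0.146) or siAxl 2 (0.154), and AC005943.5 without siCt 2 (0.126), siAxl 1 (0.152) or siAxl 2 (0.190).

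**Figure D2:**
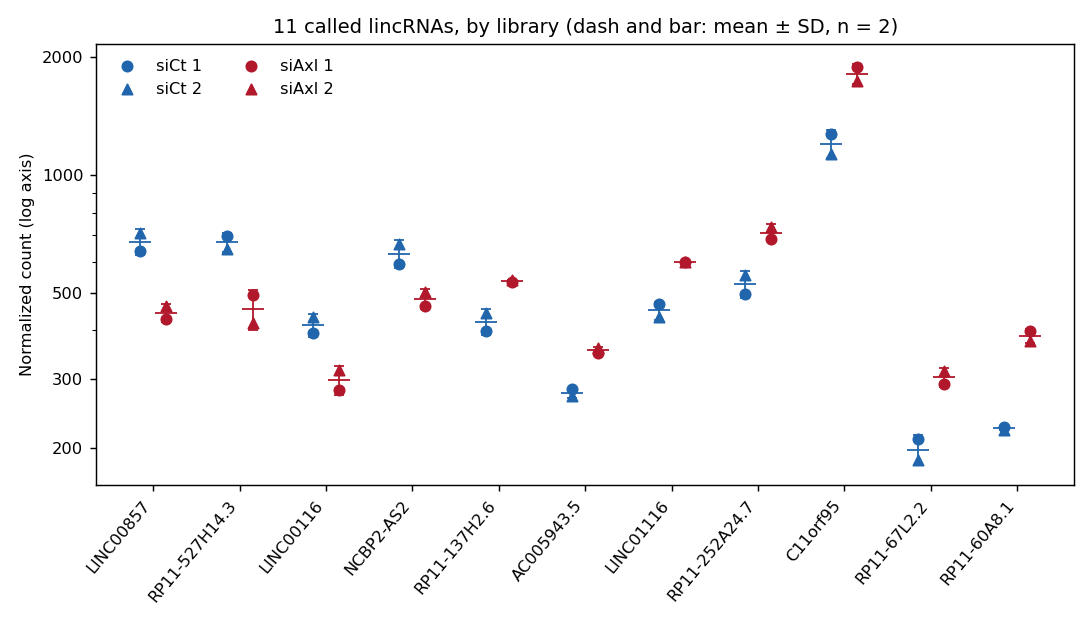
Normalized counts (log axis) of 11 of the 12 called lincRNAs in siCt 1 and 2 (blue) and siAxl 1 and 2 (red), ordered by fold change, with dashes and bars for the mean and SD of 2 libraries. In each of the 11 the blue and red points are separate.

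Tests on the reads recovered from the table gave a close count: edgeR called 13 members (19.4% of all genes) and DESeq2 13 (20.1% of 12918 genes), and 10 were called by all 3 tools. The 4 called by edgeR or DESeq2 but not by limma all rose in that test. LINC00704, also known as MANCR and linked to mitosis in aggressive breast cancer cells, had 2461 and 1995 in siCt and 2841 and 2744 in siAxl. The siAxl pair lay above both controls, and siCt differed more within itself than siAxl did (0.33, SE 0.0986, limma adjusted p = 0.0566, DESeq2 adjusted p = 0.0240). LUCAT1, a stress-induced transcript, had 457.4 and 348.9 in siCt and 615.8 and 500.1 in siAxl (0.47, SE 0.155, limma adjusted p = 0.0763, DESeq2 adjusted p = 0.0488). The other two were MIR210HG, described below, and BAIAP2-AS1 (edgeR adjusted p = 0.0473). Leaving out siCt 1 also gave a limma call to further members, not all of them named here. Among them were LINC00704 (0.49), LUCAT1 (0.67), LINC00261 (0.25), CASC7 (-0.41), MIR210HG (0.69) and MIR22HG (0.59). Without siAxl 2, LUCAT1 (0.62) and MIR210HG (0.70) gained it.

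In level, 3 transcripts dominated: LINC00657, NEAT1 and MALAT1 made up 44.9% of the members' normalized counts, and the 10 highest made up 58.7%. LINC00657 is NORAD, a cytoplasmic RNA that binds Pumilio proteins and guards genome stability. It had 35099 and 37494 in siCt and 36645 and 38223 in siAxl. These ranges overlapped, and the change of 0.04 had a 95% interval of -0.10 to 0.19. Per kilobase of exon in GENCODE 29, NORAD also led with 6905 normalized counts, before LINC00973 (2156), SNHG8 (1529), LINC00704 (1307), NEAT1 (1239), LINC00493 (1040) and MALAT1 (1010). The median over the 108 members with a length was 132 per kilobase. No test was made of this order.

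NEAT1, the scaffold of paraspeckles, had 33826 and 23489 in siCt and 33965 and 21572 in siAxl. Here the libraries of one group differed far more than the group means did (-0.06, 95% interval -0.60 to 0.48). MALAT1, a nuclear RNA of splicing speckles, had 10574 and 8412 in siCt and 10586 and 6091 in siAxl (-0.23, 95% interval -0.79 to 0.32, limma adjusted p = 0.541). Its value hung on siAxl 2: without that library the change was 0.17, and without siAxl 1 it was -0.63 with an adjusted p of 0.0119. It was -0.40 without siCt 2, with an adjusted p of 0.0140. Of the 20 tested paraspeckle proteins, with a median change of -0.087, 2 were called (10%, against 18.7% of all genes and 25.0% of protein-coding genes with a mean of at least 200). NUDT21 rose (0.59, limma adjusted p = 0.00317) and TAF15 fell (-0.24, limma adjusted p = 0.0315).

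The other members among the 10 highest were RP4-555D20.2 (mean 4621), CASC7 (4172), RP11-220I1.1 (4004), LINC00261 (3127), CTC-503J8.6 (2199) and RP11-427H3.3 (2152), besides LINC00704. None of the 10 was called by limma or edgeR, 2 had an unadjusted p under 0.05, and DESeq2 called 1, LINC00704. RP4-555D20.2 repeated the library order of NEAT1, with 5647 and 3742 in siCt and 5528 and 3565 in siAxl, and reached the threshold only without siCt 2 (-0.35, limma adjusted p = 0.0182). CASC7 had the opposite order, with 3823 and 5110 in siCt and 3399 and 4355 in siAxl. LINC00261, an endoderm lincRNA near FOXA2, had 3068 and 2795 in siCt and 3427 and 3218 in siAxl, which did not overlap (0.18, SE 0.0690, limma adjusted p = 0.113). RP11-220I1.1 and CTC-503J8.6 were the steadiest of these, with changes of -0.03 and 0.05 and standard errors of 0.0568 and 0.0599.

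The library order of NEAT1 was common among lincRNAs. In 33 of the 136 members (24.3%) siCt 1 and siAxl 1 both lay above siCt 2 and siAxl 2, against 13.6% of all genes and 9.87% of protein-coding genes with a mean of at least 200. The opposite order held in 16 members (11.8%, against 14.5% of all genes). The first order was seen in 23.3% of the 661 lincRNA rows below the limit as well and in 38.1% of 63 processed transcripts with a mean of at least 200. The same libraries, siCt 1 and siAxl 1, held the larger mitochondrial shares of 3.70% and 3.78%, whose part in this order was not tested. By construction a lincRNA in either order has overlapping groups, and none of these was called. The median absolute log2 difference between siCt 1 and siCt 2 was 0.137 in the members against 0.0840 in all genes with a mean of at least 200.

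The miRNA hosts found by position were often in that order. In 9 of these 14 hosts (64.3%, against 24.3% of members) both libraries numbered 1 lay above both numbered 2. Of 7 hosts in a list made by name, 3 did so (42.9%). The median log2 ratio of library 1 to library 2 in the 14 was 0.41 in siCt and 0.30 in siAxl, against 0.07 and 0.04 in all members. RP6-99M1.2, the host of miR-221 and miR-222 (MIR222HG), had 1778 and 1084 in siCt and 1796 and 1137 in siAxl. The host of miR-146a had 1668 and 1007 in siCt and 1795 and 1246 in siAxl. The host of the miR-23a, miR-27a and miR-24 cluster had 1147 and 719.5 in siCt and 1164 and 698.6 in siAxl. In all 3 the pairs of the same number were close across groups and far apart within a group. Their siAxl to siCt changes were 0.04, 0.21 and -0.01 with 95% intervals as wide as -0.58 to 0.67, -0.37 to 0.79 and -0.65 to 0.63.

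**Figure D3:**
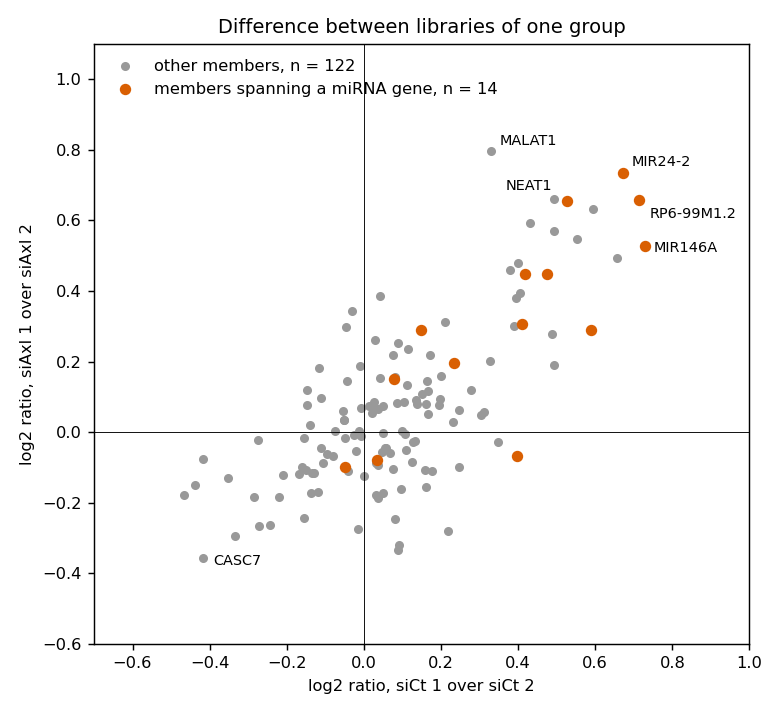
Log2 ratio of siCt 1 to siCt 2 (x axis) and of siAxl 1 to siAxl 2 (y axis) for the 136 lincRNAs, with the 14 that span a miRNA gene in orange. Orange points gather at the upper right, with MIR24-2 at 0.67 and 0.74, RP6-99M1.2 at 0.71 and 0.66 and NEAT1 at 0.53 and 0.65.

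None of the 14 miRNA hosts was called by limma, against 18.7% of all genes. At an unadjusted p under 0.05 there were 3 (MIR210HG, LINC00472 and LINC01057), edgeR called 0 and DESeq2 called 1. Of the 14, 9 were higher and 5 lower in siAxl (median 0.060). MIR210HG, the host of the hypoxia-induced miR-210, came nearest, with 986.7 and 738.96 in siCt and 1389 and 1017 in siAxl. The lower siAxl library was just above the higher control (0.48, SE 0.176, limma adjusted p = 0.104, DESeq2 adjusted p = 0.0288). MIR22HG, the host of miR-22, had 1572 and 1130 in siCt and 1990 and 1458 in siAxl, with overlap (0.35, SE 0.184, limma adjusted p = 0.226). The row MIR29A is 1 of 2 genes that GENCODE 29 names LINC-PINT, a p53-linked lincRNA, and had 260.8 and 196.1 in siCt and 217.6 and 175.9 in siAxl (-0.21, 95% interval -0.62 to 0.20). The other, no member, is the row LINC-PINT, with 344.2 and 282.8 in siCt and 357.4 and 298.7 in siAxl (0.07, SE 0.140, limma adjusted p = 0.785). MIR503HG, which precedes the cell cycle-linked miR-424 and miR-503, had 246.4 and 163.6 in siCt and 242.8 and 198.5 in siAxl (0.13). MIR4435-1HG and LINC00152 (CYTOR) are near-identical copies that can share reads, so each value is uncertain. They had changes of 0.12 and 0.05.

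None of the 4 members that span a snoRNA gene had both libraries numbered 1 above both numbered 2. Of these, 1 was higher, 3 were lower and none was called by limma, edgeR or DESeq2 (median -0.22), with 2 at an unadjusted p under 0.05. SNHG8 had 1503 and 1451 in siCt and 1265 and 1427 in siAxl, a small gap without overlap (-0.14, SE 0.0783, limma adjusted p = 0.270). SNHG15 had 819.9 and 796.4 in siCt and 749.8 and 573.8 in siAxl (-0.30, SE 0.126, limma adjusted p = 0.144, and 0.0287 without siAxl 1). RP11-1094M14.11 had 251.2 and 253.5 in siCt and 203.96 and 203.4 in siAxl, with nearly no spread inside a group (-0.31, SE 0.108, limma adjusted p = 0.0914). EPB41L4A-AS1 went the other way, with 566.7 and 558.01 in siCt and 634.2 and 611.2 in siAxl (0.15, limma adjusted p = 0.246). Over the 18 tested genes of a wider list of snoRNA hosts the median was -0.125, and 1 (5.56%, against 18.7% of all genes) was called: SNHG16 fell (-0.23, limma adjusted p = 0.0286). In 5 of the 18 (27.8%, against 13.6% of all genes) both libraries numbered 1 lay above both numbered 2.

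For 28 members a protein-coding gene started within 1000 bases on the opposite strand, at distances of 26 to 716 bases. In these head-to-head pairs 2 lincRNAs (7.14%) and 5 partners (17.9%) were called, against 18.7% of all genes and 25.0% of protein-coding genes with a mean of at least 200. In no pair were both called, and 20 of 28 pairs had the same sign. The share of same signs in other pairs of genes was not counted, and shared control was not tested. MAPKAPK5-AS1, TAPSAR1, RP11-76C10.5 and PSMG3-AS1 shared 792, 618, 109 and 60 exon bases with their partners, so their reads may not be separate. NCBP2-AS2 fell beside NCBP2, a subunit of the nuclear cap-binding complex, which had 4966 and 5049 in siCt and 5189 and 5151 in siAxl (0.05, SE 0.0521, limma adjusted p = 0.588). Among the partners, NUP50 (-0.44), RAB30 (-0.30) and BAIAP2 (-0.28) fell and GMDS (0.26) rose, with limma adjusted p of 0.00916, 0.0481, 0.0304 and 0.0276. BAIAP2 and its lincRNA BAIAP2-AS1 went in opposite directions, the lincRNA with 771.9 and 833.2 in siCt and 942.1 and 972.8 in siAxl (0.26, SE 0.0765, limma adjusted p = 0.0594).

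The pair at the AXL ligand gene is shown with its shared promoter. GAS6, which encodes the ligand of AXL, and GAS6-AS2 (GAS6-DT) are transcribed in opposite directions from starts 101 bases apart. The bases between the starts, chr13:113864077-113864176 in GRCh38.p14 on the plus strand, hold 85.0% G and C and 3 copies of GGGCGG (in capitals).
GAS6 to GAS6-DT: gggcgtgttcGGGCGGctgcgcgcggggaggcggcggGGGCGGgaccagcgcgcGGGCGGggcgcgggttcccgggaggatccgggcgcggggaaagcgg

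GAS6 had 12547 and 12306 normalized counts in siCt and 16918 and 17166 in siAxl, with both siAxl libraries well above both controls (0.46, SE 0.0522, limma adjusted p = 0.00329). GAS6-AS2 had 221.5 and 206.95 in siCt and 221.4 and 247.6 in siAxl, and its groups touched, siAxl 1 being level with siCt 1 (0.13, SE 0.120, limma adjusted p = 0.503). The difference between the pair's changes was not tested.

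**Figure D4:**
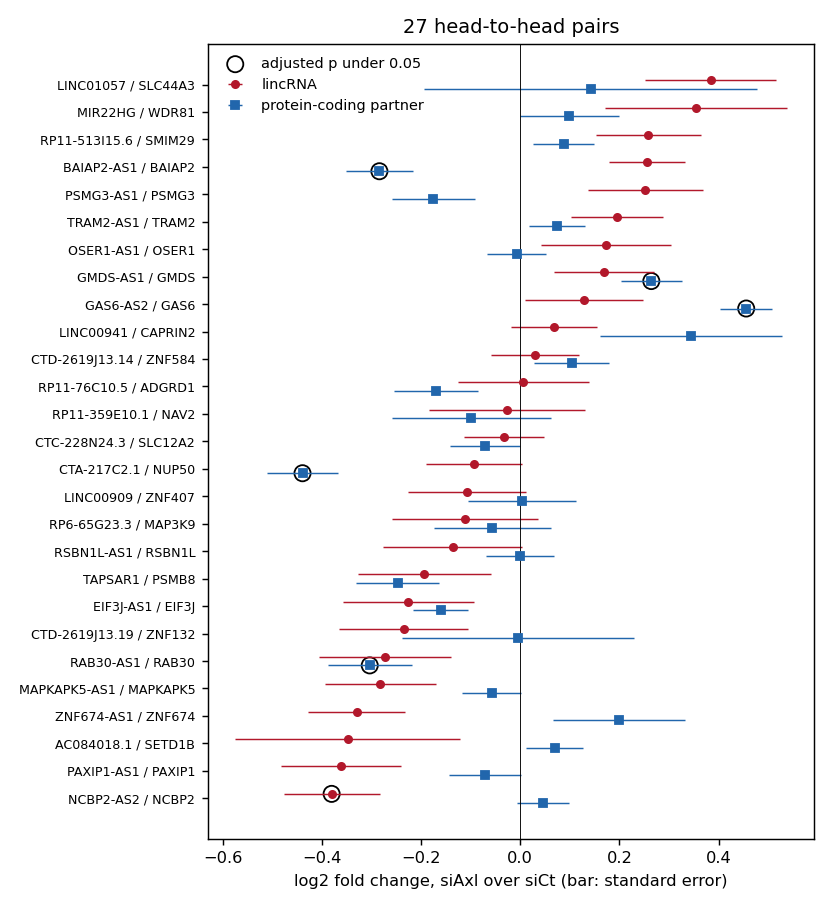
Log2 fold change, siAxl over siCt, of 27 of the 28 lincRNAs (red circles) and their head-to-head protein-coding partners (blue squares), with standard errors as bars and an open circle where the adjusted p was under 0.05. NCBP2-AS2 at -0.38 stands apart from a partner near 0, and GAS6 at 0.46 from GAS6-AS2 at 0.13.

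For the 9 called lincRNAs in GENCODE 29, 18 flanking protein-coding genes were listed, 12 of which were tested and 2 called (16.7%, against 18.7% of all genes). One of these was MTX2, a mitochondrial outer membrane gene beside LINC01116, which fell (-0.25, limma adjusted p = 0.0446) while LINC01116 rose. HNRNPA3 on its other side had a change of -0.16 (limma adjusted p = 0.117). The flanks of C11orf95 (RTN3 0.09 and SPINDOC -0.13), the tested flank of LINC00857 (ANXA11 0.13), of LINC01444 (ROCK1 0.05), of LINC02035 (DIRC2 0.15) and the outer flank of NCBP2-AS2 (PIGZ 0.10) were not called. Both flanks of RP11-60A8.1, TMEM174 and FOXD1, had no read in any library.

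By GENCODE 29 the set was mixed. Of the 108 members with an entry, 88 were still typed as lincRNA, 7 as pseudogenes and 6 as protein-coding, of which C11orf95, NCBP2-AS2 and LINC00116 were called. The others of those 6 were LINC00493 (SMIM26, which encodes a small membrane protein), ZNF718 and AC093323.3. LINC00493 had 1253 and 1195 in siCt and 1037 and 1082 in siAxl, with no overlap (-0.21, SE 0.0694, limma adjusted p = 0.0794). Exons of 47 members shared bases with another gene, and for 11 that gene had more reads. None of those 11 was called by limma, edgeR or DESeq2, and 3 had an unadjusted p under 0.05. Without a stated strand setting, reads of such pairs cannot be told apart.

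Of 15 tested noncoding RNAs studied in cancer (median 0.024), 6 of them members, none was called by limma, against 18.7% of all genes. At an unadjusted p under 0.05 there were 3, and edgeR and DESeq2 each called 1. The table types TUG1 among them as antisense and OIP5-AS1, UCA1, PVT1 and LINC00520 as processed transcripts. Some were near the floor, such as LINC00473 with a mean of 13.4. Besides LUCAT1 and NORAD, the members among them were LINC00152, LINC00511, CRNDE and JPX, with changes between 0.01 and 0.05. In 7 tested miRNA host transcripts of a list made by name and in 3 p53-linked noncoding RNAs limma and edgeR made no call (medians 0.12 and 0.030). Over all genes limma called 18.7% and edgeR 19.4%, and lists this short cannot be told from those shares. Of the 7, 2 had an unadjusted p under 0.05 and DESeq2 called 1, and of the 3 these counts were 0. Of 18 tested genes of the nuclear exosome, which trims and degrades nuclear RNA, and of its adaptors, 7 fell (38.9%, against 7.91% of all genes and 10.8% of protein-coding genes with a mean of at least 200) and none rose (median -0.21). EXOSC9 fell most, from 3202 and 3336 in siCt to 2265 and 2255 in siAxl (-0.53, SE 0.0571, limma adjusted p = 0.00274). MPHOSPH6 (-0.40), EXOSC8 (-0.36), EXOSC5 (-0.34), EXOSC3 (-0.32), EXOSC10 (-0.25) and EXOSC2 (-0.23) fell as well, with limma adjusted p from 0.0143 to 0.0451. Of the 18, edgeR and DESeq2 each called 6. Of 10 factors of nonsense-mediated decay, SMG9 (-0.28, limma adjusted p = 0.0174) and UPF3B (-0.30, limma adjusted p = 0.0228) fell (20% of the list). The 136 lincRNAs had a median change of -0.016, and a link between their levels and these factors was not tested.

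The 7-letter word CACATCA was counted in the members' transcripts because it had earlier been linked to a shift in these data. It occurred in 24 of the 108 members with a transcript sequence (22.2%, against 28.1% of the tested genes). Members with the word had a median change of -0.054 and a median exon length of 6240 bases, and the 84 without it had 0.017 and 3063 bases. All 9 called members with a sequence lacked the word, 4 higher and 5 lower. With 22.2% of members carrying the word, 9 are too few to link its absence to a call, and no link was tested. Over all tested genes the medians were 0.049 with the word and -0.020 without it, which is the opposite order to that of the members.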

How the data were processed

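Total RNA of 4 MDA-MB-231 samples was sequenced. Per the labels, the submitters' processing notes name CASAVA 1.8, TopHat2 2.0.10, HTSeq 0.5.3, DESeq2 1.4.5 and GRCh37. The strand setting of the counting is not given in the sources used here. The deposited signal is, for each of 63677 genes, its reads in a library scaled by that library's DESeq2 size factor. The authors also deposited log2 fold changes with standard errors, Wald scores and p-values of their DESeq2 comparison, none of which was used.

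Whole reads were recovered from 100% of the values (tolerance 0.05). Genes passing filterByExpr (edgeR 4.0.16) on these reads were kept (16064, with 47613 left out) and fitted with limma 3.58.1 (trended eBayes, two-sided) on log2(normalized count + 1), siAxl against siCt, with no covariate. With 2 libraries against 2, no permutation test can give a p under 0.333. On simulated data 79% of 100 genes changed by 0.5 log2 units and 100% of 100 changed by 1 were recovered among 16064 genes. There 0.0883% of unchanged genes were called. The changed genes were drawn from all tested genes with a mean of at least 200, and no difference by replicate number was simulated. The lincRNAs had a larger median standard error than those genes (0.109 against 0.0721), so the 79% does not measure their recovery. edgeR called 3122 genes and DESeq2 1.42.0 called 2596.

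Names, types, lengths and neighbours came from GENCODE 29 (GRCh38), matched by Ensembl identifier, and no coordinates were moved between builds. The members, the gene lists and the tests were chosen with earlier results of these data known. Named are AXL, every called member but 1 that is not reported here, the 10 highest members, members of a list, the rows beside the limit, called genes of the protein lists and neighbours of called members. Head-to-head pairs, hosts of miRNAs and snoRNAs found by position, LINC00493, BAIAP2-AS1 and promoters were added after their values were seen.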

Additional observations from a re-analysis of the deposited data

How the results depend on the processing

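Of the 12 called lincRNAs, 12 kept their call in edgeR with either scaling, with TMM scaling in limma and with a pseudocount of 0.5 or 8. DESeq2 and library size scaling, with or without mitochondrial genes, kept 10. The count of called members fell to 4 when every gene with at least 1 read was tested (27108 genes, 1097 called in all), to 4 at an adjusted p under 0.01 and to 6 where the change also had to reach 0.5 log2 units. For the cutoffs of 0.01 and of 0.5 log2 units the share over all genes was not counted. The count was 20 of 231 lincRNAs with a mean of at least 100 (8.66%). It was 7 of 60 with a mean of at least 500 (11.7%), beside 18.7% of all genes tested. It was 7 among the 61 members with a GENCODE 29 entry and no exon shared with another gene. Leaving out 1 library gave counts from 7 (without siAxl 2) to 30 (without siCt 1), and the median log2 fold change of the members, -0.016, then ran from -0.023 to 0.035. The median was 0.035 without siCt 1 and 0.018 without siAxl 2. In these fits the lone library is assumed to vary like the others, and the replicate numbers are not balanced between the groups. Over all genes 3006 were called, 3900 without siCt 1, 2478 without siCt 2, 1301 without siAxl 1 and 1518 without siAxl 2. With a library left out, none of the 12 changed sign, whereas members that were not called did, such as MALAT1 (-0.63 to 0.17), RP4-555D20.2 (-0.37 to 0.27) and NEAT1 (-0.39 to 0.27).

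With the replicate number as a block, 51 members (25 higher, 26 lower) and 7310 genes in all were called, the 12 among them. The labels do not say what the numbers mark. The deviations of siCt 1 and siAxl 1 from their group means correlated at 0.271 over the 16064 genes and at 0.729 over the members, as a description with 2 pairs.

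Of the 124 members not called, 49 had 95% intervals that reached past 0.5 log2 units, abundant ones such as NEAT1 and MALAT1 among them.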
